A study of Homo sapiens with 12 samples.

Results

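The removal of doxycycline changed expression in EW8-RRM1-KO as well as TC71-RRM1-KO cells, and the comparison made here was the difference between those changes: the EW8 response (48 h against 0 h) minus the TC71 response. It used all 12 libraries of the series in 4 groups of 3. EW8 and TC71 are Ewing sarcoma cell lines, grown in DMEM with 10% FBS. In both lines the endogenous RRM1 gene was knocked out with CRISPR/Cas9, and a codon-optimized RRM1 transgene under a doxycycline-inducible promoter, delivered by lentivirus, kept the cells alive, and the knockout lines were cloned from single cells. The groups were EW8 at 0 h, EW8 at 48 h, TC71 at 0 h and TC71 at 48 h. The 0 h cells were grown with doxycycline and the 48 h cells had been without it for 48 hours, so the knockout and the transgene are shared by all 4 groups. The labels do not say that replicates came from separate cultures, so p-values measure the spread between these libraries, which may be technical. The number of clones behind these libraries is not given in the sources used here, so a difference between lines and a difference between clones cannot be told apart.

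RRM1 is the large subunit of ribonucleotide reductase, the enzyme that makes deoxyribonucleotides for DNA synthesis. Cells short of deoxyribonucleotides slow their replication forks, activate the ATR and CHK1 checkpoint, and switch on stress kinases such as JNK and p38. These kinases act on the AP-1 transcription factors, dimers of JUN, FOS, ATF and MAF proteins, and on immediate early genes, which are transcribed within minutes of a stimulus without new protein synthesis. Ewing sarcoma cells are driven by the EWS-FLI1 fusion, and the genes it holds down include many of the matrix and cytoskeletal genes that AP-1 turns on.

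Library totals lay between 18468485 and 35698991 counts, and the biological coefficient of variation was 4.17%. By a chi-square of counts per gene between libraries of a group, TC71 48 h replicate 3 stood apart from its group, at 7.57 and 9.16 against 1.98 to 4.93 for the other pairs, and without it 1154 genes had a higher and 181 a lower response in EW8. All 8 Ewing sarcoma markers were tested, and their summed level was 2307 to 2480 CPM in EW8 at 0 h, 2427 to 2428 in EW8 at 48 h, 1966 to 2017 in TC71 at 0 h and 2169 to 2254 in TC71 at 48 h (CPM, counts scaled to a common library size by edgeR). CAV1 had the most counts of the 8 in every library, so the sum hides the other members. At an adjusted p below 0.05, 5 were up and 3 down in EW8, and 5 were up and 2 down in TC71. The response was higher in EW8 for 2 of the 8 and lower for 4 at that threshold, against 25.7% and 22.4% of all genes. Of 18 markers of other cell types, 7 were in the table, 4 passed the filter on low counts and none was called. Their summed level was 18.9 to 21.6 CPM in EW8 at 0 h and 31.1 to 33.0 at 48 h, and 21.1 to 22.2 and 32.8 to 37.3 CPM in TC71. The fibroblast marker DCN had the most counts, at 236 to 945 per library, and the melanocyte marker PMEL had 26 to 120. Fibroblast LUM had 76 to 149 counts in EW8 libraries and 0 to 4 in TC71, and epithelial EPCAM 2 to 9 and 14 to 43. The leukocyte marker PTPRC was at 5 counts or fewer in every library. Their part in the results was not tested. Across the 16515 genes tested, the median difference between the responses was 0.04 on the log2 scale, with a median EW8 response of 0.03 and a median TC71 response of -0.00132.

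RRM1 itself (ENSG00000167325, chromosome 11, 4094707 to 4138932, hg38) rose in both lines, and more in EW8. Its CPM were 9.37, 9.51 and 9.67 in the EW8 libraries at 0 h and 63.9, 72.6 and 74.1 at 48 h. In TC71 they were 15.7, 15.5 and 17.3 at 0 h and 25.7, 26.4 and 24.1 at 48 h. No library of a 48 h group overlapped the 0 h group of its line, and the order of the lines was exchanged between the times. The EW8 response was larger by 2.23 on the log2 scale (standard error 0.10, edgeR adjusted p = 3.06e-18). These reads were mapped to the reference RRM1 gene, so the level does not show how much of the codon-optimized transgene was present, and it is no check of the loss of RRM1 protein. RRM2, the small subunit of the same enzyme, went the other way (named after its values were seen). It rose by 0.25 in EW8 and by 0.99 in TC71, a difference of -0.74 (standard error 0.05, edgeR adjusted p = 1.51e-13).

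The edgeR quasi-likelihood test found 1202 genes whose response was higher in EW8 and 162 whose response was lower, with a difference over 2-fold and an adjusted p (Benjamini-Hochberg, over all genes tested) below 0.05. This is 7.28% and 0.981% of the genes tested. The fold threshold was applied to the estimated difference, and when the test itself asked for a difference beyond 2-fold, 226 and 6 genes passed. Without the fold threshold the counts were 4243 (25.7%) and 3697 (22.4%), or 5018 and 2941 with library sizes from total counts alone. Among the 1202 genes, the median response was 1.80 in EW8 and 0.33 in TC71, and the median difference was 1.43, or 1.37 with the 126 genes that had a group at 3 counts or fewer in every library placed at that floor. Among the 162 genes, the median response was -1.29 in EW8 and 0.08 in TC71, and the median difference was -1.28, or -1.24 with the 11 such genes at the floor. The called genes were low in level, with a median of 2.19 CPM for the first set and 1.72 for the second against 17.2 for all genes tested. Of the calls, 559 and 76 averaged at least 20 counts in each of the 4 groups.

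**Figure D1:**
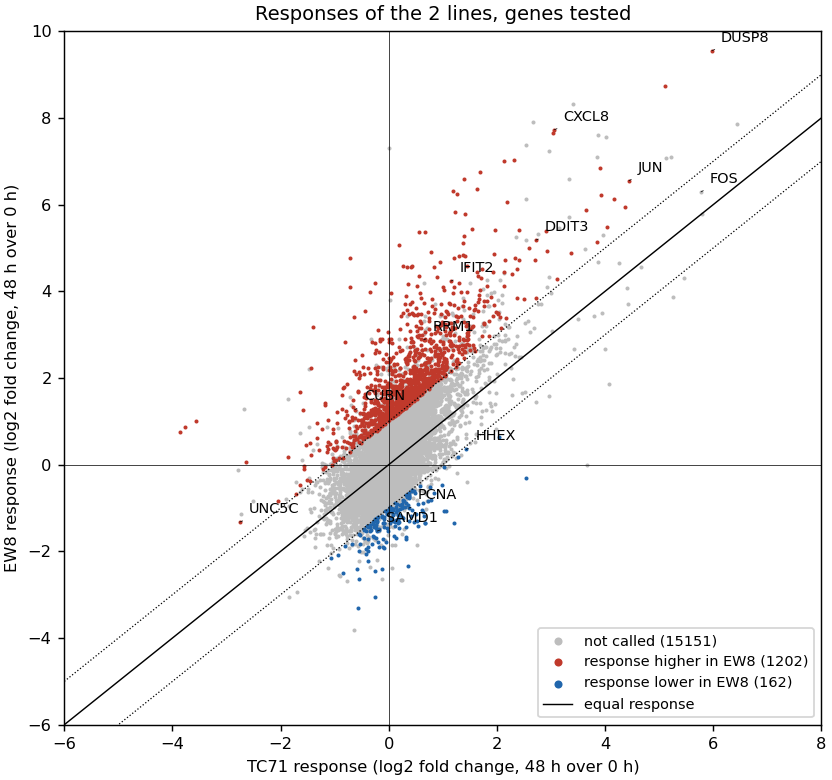
Each point is 1 gene tested, with its TC71 response on the x axis and its EW8 response on the y axis (log2 fold change, 48 h over 0 h). The solid line marks equal responses and the dotted lines a 2-fold difference, and 1 gene lies outside the axes. The 1202 genes in red lie mostly at positive EW8 values, and the 162 genes in blue mostly at negative EW8 values and near 0 on the TC71 axis.

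Most calls were differences in the size of a response that was present in EW8 and small or not detected in TC71. Of the 1202 genes with a higher response in EW8, 573 were up in EW8 alone at an adjusted p below 0.05, and 530 were up in both lines. For comparison, 37.0% of all genes tested were up in EW8 at that threshold and 22.9% in TC71, and 31.6% were down in EW8 and 19.2% in TC71. Of the 162 genes with a lower response in EW8, 98 were down in EW8 alone and 27 were down in both. The TC71 response was above 0, tested or not, for 859 (71.5%) of the 1202 genes, against 49.7% of all genes tested, and below 0 for 73 (45.1%) of the 162, against 50.2%. The larger EW8 response was not limited to the called genes. Of 2902 genes that were up in both lines, the rise was larger in EW8 for 86.7%, with a median of 0.91 in EW8 and 0.44 in TC71, and of 2364 that were down in both, the fall was larger in EW8 for 87.4%, with medians of -0.55 and -0.26.

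The largest differences in favor of EW8, among genes with a mean of at least 20 counts in each group, were those of BTBD19, IFIT2, DLX2, DYRK1B, DNAH17, MZF1-AS1, LINC00659, DDIT3, DDX60 and COL5A3, from 3.32 to 2.39 on the log2 scale. DDIT3 (CHOP, the transcription factor at the end of the integrated stress response, chromosome 12, 57516588 to 57521737) had 4.86, 5.84 and 4.39 CPM in EW8 at 0 h and 173, 179 and 183 at 48 h. In TC71 it had 4.58, 5.44 and 4.14 CPM at 0 h and 27.6, 32.6 and 32.3 at 48 h. The lines overlapped at 0 h and were far apart at 48 h, with a difference of 2.46 (standard error 0.14, edgeR adjusted p = 2.92e-15). IFIT2 (an interferon-stimulated gene, chromosome 10, 89283694 to 89309271) had 5.08, 5.33 and 5.34 CPM in EW8 at 0 h and 96.5, 96.2 and 104 at 48 h. TC71 libraries gave 3.39, 3.43 and 3.64 CPM and then 6.83, 8.21 and 8.13. The difference was 3.08 (standard error 0.14, edgeR adjusted p = 4.79e-18). DLX2, a homeobox transcription factor of forebrain and craniofacial development (chromosome 2, 172099438 to 172102900), went from 1.77 ± 0.405 to 39.2 ± 2.44 CPM in EW8 and from 2.23 ± 0.323 to 7.32 ± 1.16 in TC71 (SD, n = 3 libraries each). DYRK1B, a kinase that holds cells in quiescence (chromosome 19, 39825350 to 39834201), went from 6.51 ± 0.798 to 65.0 ± 3.25 CPM in EW8 and from 18.3 ± 1.55 to 27.3 ± 1.80 in TC71. COL5A3, a fibrillar collagen chain (chromosome 19, 9959561 to 10010504), went from 4.07 ± 0.686 to 33.5 ± 2.37 CPM in EW8 and from 4.27 ± 0.378 to 6.78 ± 0.434 in TC71. For DDIT3, IFIT2, DLX2, DYRK1B and COL5A3, every EW8 library at 48 h lay above every TC71 library. DDX60, a helicase of the antiviral response, rose by 2.38 in EW8 and had a TC71 response of -0.05 (edgeR adjusted p = 0.862). DDIT3, IFIT2, DYRK1B and MZF1-AS1 share annotated exons with a gene on the same strand, so some of their reads may be split with that gene.

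The largest differences in the other direction were smaller, from -1.62 to -1.38, and most were in genes of low level. They were ASPRV1, FDXACB1, TINCR, KCNC4, HMX2, ENSG00000248835, ANKRD18EP, PRDM13, PIGCP1 and PCNA. PCNA, the sliding clamp of DNA polymerases (chromosome 20, 5114953 to 5126626), had the highest level among them. It had 485, 464 and 497 CPM in EW8 at 0 h and 241, 249 and 232 at 48 h, against 363, 363 and 369 in TC71 at 0 h and 463, 473 and 481 at 48 h. Every EW8 library at 48 h lay below every EW8 library at 0 h, while every TC71 library at 48 h lay above those at 0 h. The order of the lines was exchanged. The difference was -1.38 (standard error 0.05, edgeR adjusted p = 1.04e-19), with responses of -1.003 in EW8 and 0.37 in TC71. HMX2, a homeobox gene, had a response of -1.90 in EW8 and -0.39 in TC71, and PRDM13, a neural zinc finger gene, -1.30 and 0.09. ASPRV1 and FDXACB1 share exons with other genes on the same strand, and ANKRD18EP and PIGCP1 are processed pseudogenes, whose reads can come from their parent genes.

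**Figure D2:**
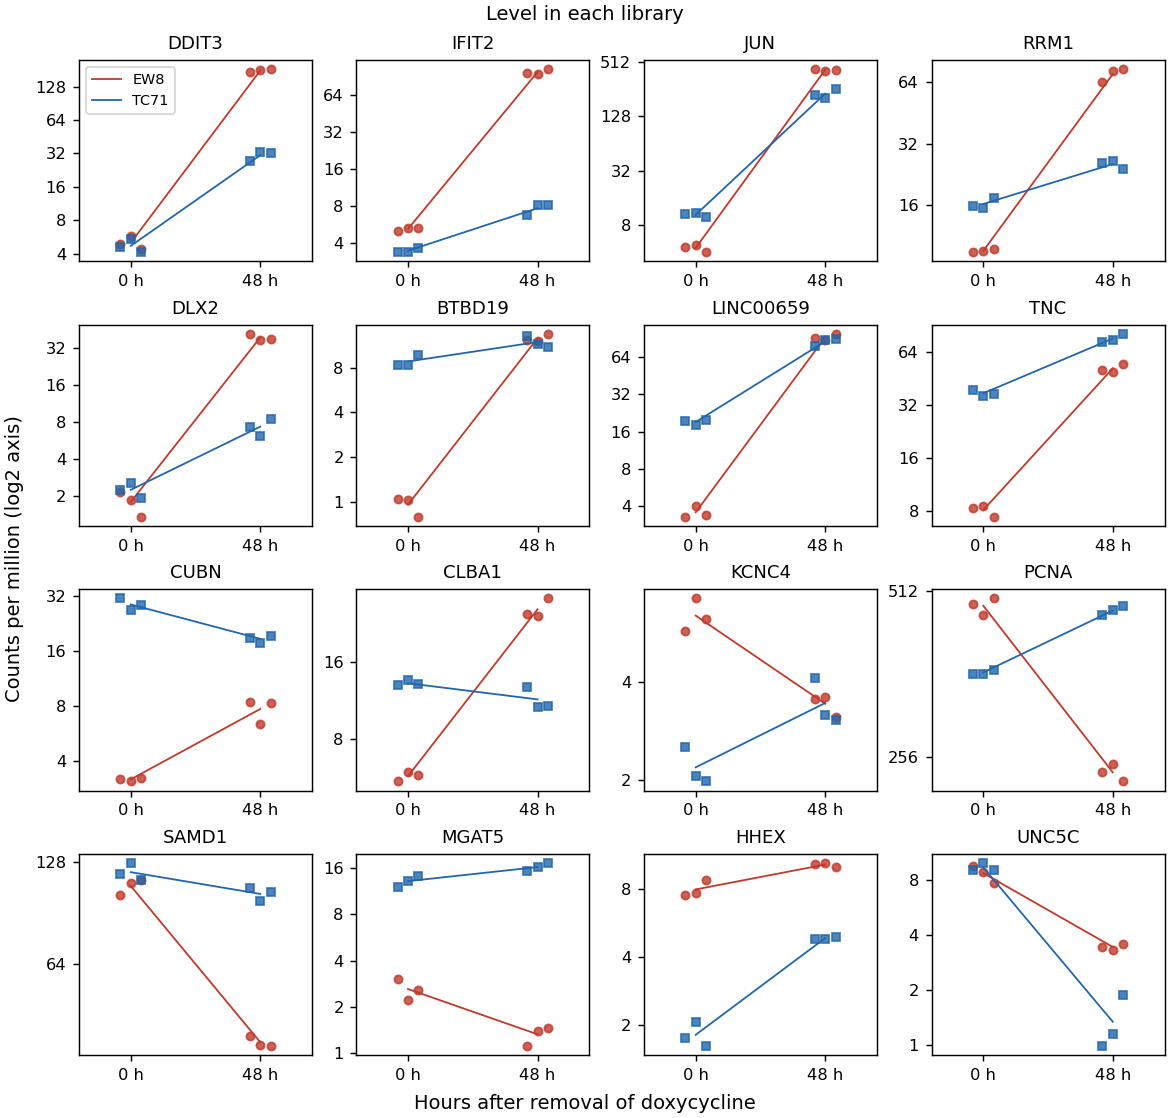
Level of 16 genes in each library (CPM, log2 axis) at 0 h and 48 h after removal of doxycycline, with circles for EW8, squares for TC71 and lines joining the group means. DDIT3, JUN and DLX2 rose further in EW8 than in TC71, BTBD19 and LINC00659 met at 48 h from different levels at 0 h, and CUBN, CLBA1, KCNC4, PCNA and MGAT5 moved in opposite directions.

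Among the called genes, opposite responses, each past an adjusted p of 0.05 in its own line, were few. Genes whose responses differed by less than 2-fold, such as DUT (-0.44 in EW8 and 0.23 in TC71), were not counted. There were 43 genes up in EW8 and down in TC71 and 21 down in EW8 and up in TC71. The first count was 25 without TC71 0 h replicate 3 and again 25 without TC71 48 h replicate 3, while the second lay between 19 and 31 with any 1 library left out. With a mean of at least 20 counts in each group, 24 and 19 remained. CUBN, a receptor for endocytosis of vitamin B12 complexes and albumin (chromosome 10, 16823966 to 17129811), had 3.20, 3.09 and 3.23 CPM in EW8 at 0 h and 8.45, 6.42 and 8.27 at 48 h. The TC71 levels were 31.1, 26.8 and 28.6 CPM and then 19.0, 17.7 and 19.4. EW8 stayed below TC71 at both times, and the responses were 1.27 and -0.63 (difference 1.90, standard error 0.15, edgeR adjusted p = 1.09e-12). CLBA1, a clathrin-binding protein, rose by 2.17 in EW8 and had a small TC71 response of -0.21 (edgeR adjusted p = 0.0472). DNAH17, an axonemal dynein heavy chain, had responses of 1.86 and -0.77, the lncRNA AC078846.1 of 1.09 and -0.68, and CAND2 of 0.98 and -0.74. In the other class, KCNC4, a voltage-gated potassium channel (chromosome 1, 110210314 to 110283100), had 5.74, 7.22 and 6.22 CPM in EW8 at 0 h and 3.56, 3.61 and 3.13 at 48 h. In TC71 it had 2.53, 2.06 and 1.99 CPM and then 4.12, 3.17 and 3.06, so that the lines overlapped at 48 h. SHISA6, an AMPA receptor regulator, had responses of -0.93 and 0.36, MGAT5, a Golgi glycosyltransferase that branches N-glycans, of -0.98 and 0.31, and TINCR of -0.83 and 0.72.

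A larger TC71 response was the exception. Among genes with a mean of at least 20 counts in each group, 2 genes were down in both lines and more so in TC71. UNC5C, a netrin receptor, fell from 8.71 ± 0.927 to 3.45 ± 0.132 CPM in EW8 and from 9.37 ± 0.468 to 1.35 ± 0.476 in TC71 (SD, n = 3 libraries each), a difference of 1.43 (edgeR adjusted p = 1.37e-06). ABLIM1, an actin-binding LIM protein, had responses of -0.84 in EW8 and -2.04 in TC71, and IGSF9 of -0.06 and -1.18. HHEX, a homeobox repressor, rose in both lines, by 0.35 in EW8 and 1.43 in TC71, and EMILIN3, an extracellular glycoprotein, had responses of -0.06 and 1.02. NDUFA4L2, a hypoxia-induced mitochondrial protein, had responses of -0.36 (edgeR adjusted p = 0.0601) and -1.52. ABLIM1, IGSF9 and EMILIN3 were named after their values were seen.

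Many immediate early genes, though not all, had a larger response in EW8. Of 31 immediate early genes tested, 19 were called with a higher response in EW8 and none lower, against 7.28% of all genes. The median response of the list was 2.35 in EW8 and 1.36 in TC71, and the median difference was 1.19 against 0.04 over all genes. KLF10 (a zinc finger repressor of the TGF-beta early response) had a difference of 1.65, PPP1R15A (GADD34, a phosphatase subunit that reverses eIF2 alpha phosphorylation) of 1.91, ZFP36L1 (an mRNA decay factor) of 1.199 and KLF6 of 1.15. Of 23 AP-1 family genes, 8 were called higher and none lower, with a median difference of 0.59. JUN, the main AP-1 subunit (chromosome 1, 58776845 to 58784048), had 4.64, 4.87 and 4.06 CPM in EW8 at 0 h and 423, 408 and 420 at 48 h. TC71 started at 10.6, 11.0 and 9.85 CPM and reached 221, 205 and 257. JUN was lower in EW8 at 0 h and higher at 48 h with no overlap at either time, and its response was larger in EW8 by 2.11 (standard error 0.14, edgeR adjusted p = 4.50e-11). FOS, its partner, had 1.01, 1.203 and 1.28 CPM and then 89.0, 93.5 and 95.4 in EW8, and 0.819, 1.18 and 0.703 and then 47.4, 43.9 and 54.1 in TC71. Its responses of 6.29 and 5.77 gave a difference of 0.52 (standard error 0.26), which missed the threshold (edgeR adjusted p = 0.106), and the value was 0.31 without TC71 0 h replicate 2. FOSL2 and MAFF had differences of 1.23 and 1.96.

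Genes that switch these kinases off were measured as well. Over all genes tested, 7.28% were called higher in EW8. Of 15 MAP kinase feedback genes, 3 were called higher, and the median response was 2.14 in EW8 and 1.16 in TC71. DUSP8, a phosphatase that acts on JNK and p38, had 2, 2 and 6 counts in EW8 at 0 h and 1992, 1958 and 2368 at 48 h. In TC71 it had 5, 8 and 6 counts and then 446, 396 and 622. The 0 h counts are so low that the difference of 3.58 has a standard error of 0.62. DUSP16 and DUSP1 had differences of 1.53 and 1.27. Of 23 NF-kB subunits and targets, 4 were called, among them TNFAIP3 (A20, an inhibitor of NF-kB) at 1.13 and RELB at 1.46. Of 38 cytokines and chemokines listed, 10 passed the filter on low counts and 6 were called, with 5 of the 10 called lower in EW8 at 0 h, against 11.9% of all genes. In 4 of the 10, a group had 3 counts or fewer in every library. CXCL11 was that low in both 0 h groups, and had a mean of 0.779 CPM in EW8 and 0.0664 in TC71 at 48 h. Such a gene can pass the filter through EW8 at 48 h alone, so these shares are partly set by the filter. CXCL8 (interleukin 8) had 1, 2 and 2 counts in EW8 at 0 h and 287, 336 and 301 at 48 h, a rise of at least 119-fold when the 0 h libraries are set to a floor of 3 counts each. In TC71 it had 16, 16 and 10 counts and then 114, 137 and 173, an 8.25-fold rise in mean CPM. CLCF1 was called at 1.43 but had 0.97 without EW8 48 h replicate 2, which takes it below the fold threshold.

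In the integrated stress response, the pathway in which phosphorylation of eIF2 alpha favors the translation of ATF4, 14 of 40 genes tested were called higher in EW8 and none lower, against 7.28% and 0.981% of all genes. The list moved apart in the lines, with a median response of 0.39 in EW8 (27 up, 12 down at an adjusted p below 0.05) and -0.08 in TC71 (14 up, 17 down). Among all genes tested, 37.0% were up and 31.6% down in EW8, and 22.9% and 19.2% in TC71. SLC3A2, the heavy chain of amino acid transporters, went from 233 ± 7.66 to 691 ± 7.88 CPM in EW8 and from 148 ± 5.11 to 207 ± 6.84 in TC71 (SD, n = 3 libraries each). CTH, an enzyme of cysteine synthesis, had responses of 1.61 and 0.33. Of 21 genes of the unfolded protein response, 1 was called, a share below that of all genes. It was DNAJC3 at 1.03, which had 0.96 without EW8 0 h replicate 2, and the list median was -0.17. Of 32 p53 targets, 9 were called higher in EW8, among them CDKN1A (p21, an inhibitor of cyclin-dependent kinases) at 1.35, SESN2 at 1.37, CCNG2 at 1.55 and PLK3 at 1.38. In the BCL2 family, 3 of 17 were called. BOK went from 30.3, 31.3 and 29.8 to 73.0, 63.2 and 71.0 CPM in EW8, and was 168, 179 and 154 and then 184, 152 and 176 in TC71. BBC3 (PUMA, a promoter of apoptosis) had a difference of 1.89.

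The promoters of 6 of these genes are printed here as examples of the stress, signaling and interferon lists: DDIT3 and PPP1R15A for the integrated stress response, DUSP8 and CXCL8 for kinase feedback and chemokines, and IFIT1 and IFIT3 for interferon-stimulated genes. Each sequence is the 250 bases before the RefSeq start (GRCh38.p14), 5′ to 3′ on the strand of the gene. The windows are chr12:57520515-57520764 (minus strand) for DDIT3, chr19:48872171-48872420 (plus) for PPP1R15A, chr11:1572272-1572521 (minus) for DUSP8, chr4:73740319-73740568 (plus) for CXCL8, chr10:89392373-89392622 (plus) for IFIT1 and chr10:89327747-89327996 (plus) for IFIT3. Capitals mark, on either strand, the AP-1 motif TGANTCA in DDIT3 and CXCL8, the CRE TGACGTCA in DUSP8 and PPP1R15A, the TATA box letters TATAAA in CXCL8, PPP1R15A and IFIT3, and the ISRE GAAANNGAAA in IFIT1 and IFIT3. The ISRE matches read here on the opposite strand. So does the TATAAA match of IFIT3, printed as TTTATA, which is thus not in the direction of the gene. The ISRE was added to the motifs searched after the values were seen.
DDIT3: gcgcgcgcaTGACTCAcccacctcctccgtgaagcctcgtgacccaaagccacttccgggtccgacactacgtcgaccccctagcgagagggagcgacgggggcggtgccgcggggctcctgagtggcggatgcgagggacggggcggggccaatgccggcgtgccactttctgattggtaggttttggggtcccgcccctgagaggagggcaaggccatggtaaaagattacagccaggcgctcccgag
PPP1R15A: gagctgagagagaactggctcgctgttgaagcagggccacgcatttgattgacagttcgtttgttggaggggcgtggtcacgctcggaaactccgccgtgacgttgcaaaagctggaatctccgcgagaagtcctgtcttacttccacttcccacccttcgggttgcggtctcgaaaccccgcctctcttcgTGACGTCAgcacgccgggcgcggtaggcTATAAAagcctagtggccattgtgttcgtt
DUSP8: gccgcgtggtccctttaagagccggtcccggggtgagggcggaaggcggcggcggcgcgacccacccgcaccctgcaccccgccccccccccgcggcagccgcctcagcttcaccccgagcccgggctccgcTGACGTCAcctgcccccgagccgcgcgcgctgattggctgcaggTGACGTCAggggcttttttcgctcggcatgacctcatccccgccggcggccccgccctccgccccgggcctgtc
CXCL8: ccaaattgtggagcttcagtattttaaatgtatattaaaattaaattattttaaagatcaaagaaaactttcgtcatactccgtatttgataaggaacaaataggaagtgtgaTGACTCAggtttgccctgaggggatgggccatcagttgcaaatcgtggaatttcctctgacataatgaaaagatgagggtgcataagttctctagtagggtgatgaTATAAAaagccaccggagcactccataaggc
IFIT1: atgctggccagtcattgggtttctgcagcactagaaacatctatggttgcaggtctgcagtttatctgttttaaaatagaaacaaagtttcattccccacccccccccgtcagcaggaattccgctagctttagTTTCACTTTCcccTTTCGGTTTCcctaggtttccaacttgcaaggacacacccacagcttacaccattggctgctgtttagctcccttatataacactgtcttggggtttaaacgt
IFIT3: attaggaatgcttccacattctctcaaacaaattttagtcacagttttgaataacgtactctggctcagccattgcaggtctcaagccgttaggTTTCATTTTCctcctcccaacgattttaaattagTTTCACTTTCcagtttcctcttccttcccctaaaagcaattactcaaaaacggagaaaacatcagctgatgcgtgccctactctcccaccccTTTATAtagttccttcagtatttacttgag

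The matches lie 241 to 235 bases before the start in DDIT3, 58 to 51 in PPP1R15A (CRE), 118 to 111 and 74 to 67 in DUSP8 and 137 to 131 in CXCL8. IFIT1 holds 2 ISRE matches, from 116 to 107 and from 103 to 94, and IFIT3 holds 2, from 156 to 147 and from 122 to 113. Of the 10477 protein-coding promoters that could be matched by symbol (81.5% of 12850 genes), 4.42% held the AP-1 motif in the window from 250 bases before to 50 after the start, 3.27% the CRE, 5.92% the TATA box and 2.80% the ISRE. Promoters were matched for 77.5% of the protein-coding genes with a higher response in EW8, below the 80% needed, so the shares of motifs in that set are void and not given. A match is a description of the letters and no evidence that a factor binds there.

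Interferon-stimulated genes, which are transcribed after sensing of nucleic acid or cytokine, included 11 calls higher in EW8 and none lower out of 47 tested, against 7.28% and 0.981% of all genes. The median response was 0.80 in EW8 and 0.24 in TC71. At 0 h, 6 of the genes were called lower and 10 higher in EW8, against 11.9% and 4.77% of all genes. IFIT3 went from 7.63 ± 0.226 to 68.0 ± 6.33 CPM in EW8 and from 9.85 ± 0.629 to 22.5 ± 1.23 in TC71 (SD, n = 3 libraries each). IFIT1 went from between 10.6 and 13.5 to between 30.9 and 36.5 CPM in EW8 and stayed between 10.1 and 10.9 in all 6 TC71 libraries, with a TC71 response of -0.04 (edgeR adjusted p = 0.768). ISG15, a ubiquitin-like protein, had responses of 2.07 and 0.61. In the Schlafen family, SLFN5 was called at 1.38 and SLFN11, which blocks stressed replication forks and sensitizes cells to DNA damage, was not. SLFN11 had 279, 271 and 286 CPM and then 311, 320 and 325 in EW8, and 208, 204 and 208 and then 177, 198 and 189 in TC71. Its responses of 0.19 and -0.14 differed by 0.33 (standard error 0.06, edgeR adjusted p = 1.15e-05), under the fold threshold.

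Matrix and adhesion genes included calls in favor of EW8. Of 17 targets that EWS-FLI1 represses, 9 were called higher in EW8 and none lower, against 7.28% and 0.981% of all genes, with a median response of 1.79 in EW8 and 0.66 in TC71. TIMP3, an inhibitor of metalloproteinases, went from 88.1, 87.0 and 91.4 to 279, 284 and 287 CPM in EW8 and from 100, 92.4 and 95.6 to 123, 128 and 135 in TC71. FN1 (fibronectin) had responses of 2.66 and 1.36. Of 36 EWS-FLI1 activated targets, 2 were called, LOXHD1 at 1.94 and IGF1 at 1.18, which is near the share of all genes, and the median difference of that list was 0.10. Of 31 proteases and inhibitors, 9 were called, with SERPINE2 at 1.13, ADAMTS6 at 1.49 and PLAT at 1.05 beside TIMP3. The PLAT value was 0.98 without EW8 48 h replicate 1 and 0.99 without EW8 0 h replicate 1. Of 43 collagens, laminins and integrins, 6 were called higher and 1 lower. TNC (tenascin C, a matrix glycoprotein, chromosome 9, 115019575 to 115118207) had 8.37, 8.59 and 7.44 CPM in EW8 at 0 h and 50.7, 49.4 and 54.8 at 48 h. Levels in TC71 were 39.0, 36.0 and 36.9 CPM and then 73.1, 74.5 and 81.0, so that EW8 remained below TC71 at both times with a larger rise of 1.65.

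The shares of all genes called were 7.28% higher and 0.981% lower. Of 33 neuronal and synaptic genes, 9 were called higher in EW8, among them STX1A at 1.27, NPTX2 at 1.19 and NLGN3 at 1.18, and of 38 ion channel genes 8 were called higher and 1 (KCNC4) lower. SYP was called at 1.02 and fell below the threshold without any 1 of 4 libraries (lowest value 0.90, without EW8 0 h replicate 1). Among 63 chromatin modifiers, 2 were called, a share below that of all genes, and both are histone demethylases. KDM6B had responses of 2.68 and 0.68 and KDM5B of 1.68 and 0.03. Among 31 splicing factors, the kinases CLK1 and CLK4 were called at 1.56 and 1.30, while 17 members had a lower response in EW8 at an adjusted p below 0.05, against 22.4% of all genes. Of 15 replication-dependent histone genes, 7 were called higher in EW8 and 1 lower. H2AC6 went from 8.35 ± 1.73 to 18.5 ± 1.24 CPM in EW8 and from 72.7 ± 3.63 to 53.7 ± 2.04 in TC71, and 10 of the 15 were called lower in EW8 at 0 h, against 11.9% of all genes. Histone mRNAs of this class mostly lack a poly(A) tail and the libraries were made from polyA RNA, so these counts cover the polyadenylated share only.

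**Figure D3:**
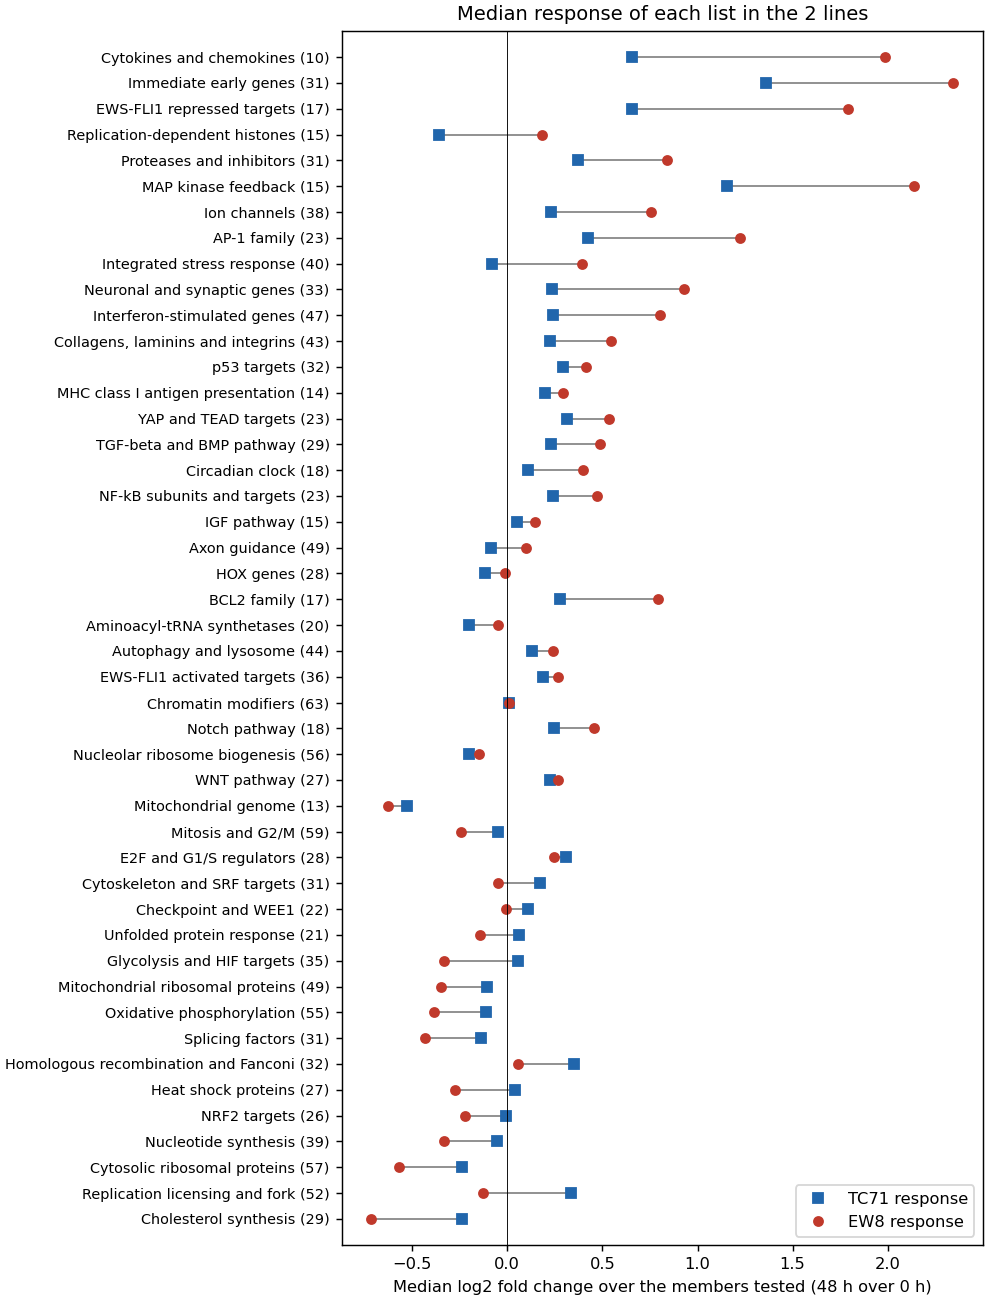
Median response of the members tested of 46 lists with at least 10 members tested, with squares for TC71 and circles for EW8 (log2 fold change, 48 h over 0 h), ordered by the median difference between responses. Cytokines, immediate early genes and EWS-FLI1 repressed targets lie at the top, with EW8 further to the right, and cholesterol synthesis, replication genes and ribosomal proteins at the bottom, with EW8 further to the left.

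Replication genes behaved differently in the lines, by less than 2-fold for all but PCNA. Of 52 genes of replication licensing and the fork, 42 were up in TC71 and 1 was down at an adjusted p below 0.05, against 22.9% and 19.2% of all genes. In EW8 19 were up, near the 37.0% of all genes, and 27 were down, against 31.6%. The difference was lower in EW8 for 40 of the 52 at that threshold, against 22.4% of all genes, and higher for 2, with a median difference of -0.37. The 3 uncalled members with the smallest p, named after their values were seen, were MCM6, RPA1 and GINS2. MCM6, a subunit of the replicative helicase, had 464, 434 and 466 CPM and then 232, 246 and 235 in EW8, and 278, 277 and 279 and then 265, 270 and 272 in TC71. GINS2, of the same helicase complex, had responses of -0.71 and 0.29. Of 32 homologous recombination and Fanconi genes, 20 had a lower response in EW8 at an adjusted p below 0.05 and 2 a higher one, against 22.4% and 25.7% of all genes. In that list 24 were up in TC71 and 14 in EW8, against 22.9% and 37.0% of all genes. Of 39 nucleotide synthesis genes, 26 had a lower response in EW8 and 3 a higher one, with medians of -0.33 in EW8 and -0.05 in TC71. DUT, which removes dUTP, had responses of -0.44 and 0.23, and SHMT1 of -0.38 and 0.39. DUT and SHMT1 were also chosen, for a small p in their list, after the values were seen.

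Most cytosolic ribosomal protein, oxidative phosphorylation and cholesterol synthesis genes had a lower response in EW8, again by small amounts. Over all genes tested, 22.4% had a lower and 25.7% a higher response in EW8 at an adjusted p below 0.05. At that threshold 31.6% were down in EW8 and 19.2% in TC71. All 57 cytosolic ribosomal protein genes were down in EW8 and 51 in TC71 at an adjusted p below 0.05, and the fall was larger in EW8 for 56 at that threshold, with a median difference of -0.35 and a range from -0.69 to -0.18. With library sizes from total counts alone, this number was 54 and the median -0.27. Of 55 nuclear genes of oxidative phosphorylation, 39 had a lower response in EW8 and none a higher one (median -0.25), while of 13 genes of the mitochondrial genome 1 was lower (median -0.08). In cholesterol synthesis, 27 of 29 genes were down in EW8 and 17 in TC71, and 25 had a lower response in EW8. INSIG1, which retains SREBP in the endoplasmic reticulum, had 117, 108 and 121 CPM and then 43.8, 41.7 and 43.9 in EW8, and 40.7, 37.5 and 45.3 and then 32.6, 33.8 and 30.2 in TC71. Its difference was -1.06 (standard error 0.09, edgeR adjusted p = 5.73e-12), or -0.98 with total counts alone, which is below the fold threshold. This list started higher in EW8 by a median of 0.78 at 0 h, and 8 of its 29 genes were called higher there, against 4.77% of all genes. Of 56 nucleolar genes of ribosome biogenesis, 18 had a higher and 14 a lower response in EW8, near the shares of all genes, with a median difference of 0.01. In that list 33 genes were down in EW8 and 46 in TC71, with medians of -0.15 and -0.20. The 20 aminoacyl-tRNA synthetases had 10 higher and 4 lower responses in EW8 and medians of -0.05 in EW8 and -0.20 in TC71.

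The level at 0 h was then set beside the difference in response. The response of each line is measured from its 0 h libraries, so a comparison that uses the same libraries for both is coupled. The 0 h level was therefore taken from replicate 1 of each line alone, and the responses from a fit without those 2 libraries, which called 1065 genes with a higher and 170 with a lower response in EW8. Of the 1065, 359 (33.7%) were more than 2-fold lower in EW8 at 0 h, against 12.3% of all 16512 genes tested, and 91 (8.54%) were more than 2-fold higher, against 5.60%. The remaining 615 calls, more than those of both other classes together, had 0 h levels within 2-fold. Of the 170 genes with a lower response in EW8, 21 (12.4%) were lower and 12 (7.06%) higher in EW8 at 0 h, against the same 12.3% and 5.60%. The rate of calls with a higher EW8 response was 4.54% among 13551 genes within 2-fold at 0 h, 12.9% where EW8 was 2- to 4-fold lower, 26.3% where it was 4- to 16-fold lower and 22.1% where it was lower by more than 16-fold. It was also above 4.54% where EW8 was higher at 0 h, at 8.69% and 13.2% for 2- to 4-fold and 4- to 16-fold. Among genes with a mean of at least 20 counts in each group, the rates were 3.52% within 2-fold, 11.9% and 29.2% for the 2- to 4-fold and 4- to 16-fold lower classes, and 8.21% and 8.57% for the corresponding higher classes.

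**Figure D4:**
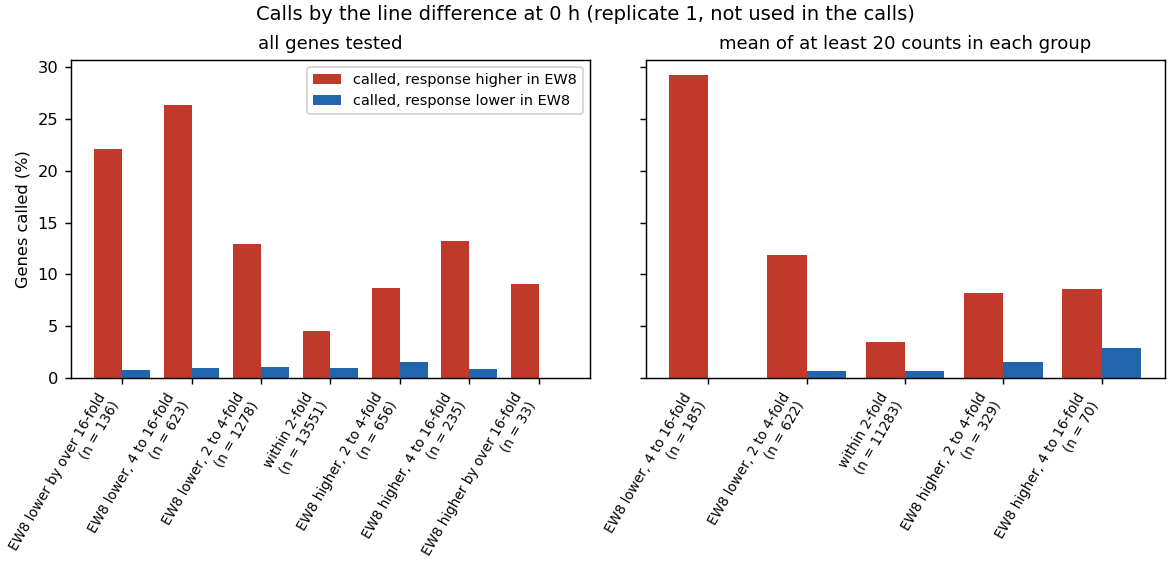
Bars give the percentage of genes called with a response higher (red) or lower (blue) in EW8, by the difference between the lines at 0 h in replicate 1, which the calls did not use; classes with fewer than 20 genes are left out. The red bars are lowest for genes within 2-fold at 0 h (4.54% of all genes tested and 3.52% with a mean of at least 20 counts in each group).

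With all 12 libraries in both measures, which then share the 0 h libraries, 460 (38.3%) of the 1202 genes were called lower in EW8 at 0 h (adjusted p below 0.05 and over 2-fold), against 11.9% of all genes tested, and 70 (5.82%) were called higher, against 4.77%. At 48 h, 10.5% of all genes were called higher in EW8 and 11.0% lower. Of the 460 genes, 299 no longer differed by this rule at 48 h, 140 were still lower in EW8 and 21 were higher. Of the 672 genes with no call at 0 h, 437 were called higher in EW8 at 48 h. Counted by size alone, the levels of the lines lay closer at 48 h than at 0 h for 563 (46.8%) of the 1202 genes and for 34 (20.99%) of the 162, and the order of the lines was exchanged for 589 and 76. By arithmetic, a gene of the first set can do either only if it started lower in EW8. A gene of the second set can do so only if it started higher there. These counts therefore follow in part from the calls, and they were not set beside all genes tested. Taken as a difference in CPM, the response was also larger in EW8 for 375 (81.5%) of the 460 genes that started lower there, and for the rest of them it was larger in TC71. For genes that started from like or higher levels in EW8, a larger log2 response gives the same sign in CPM nearly by arithmetic, so they are not counted here.

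**Figure D5:**
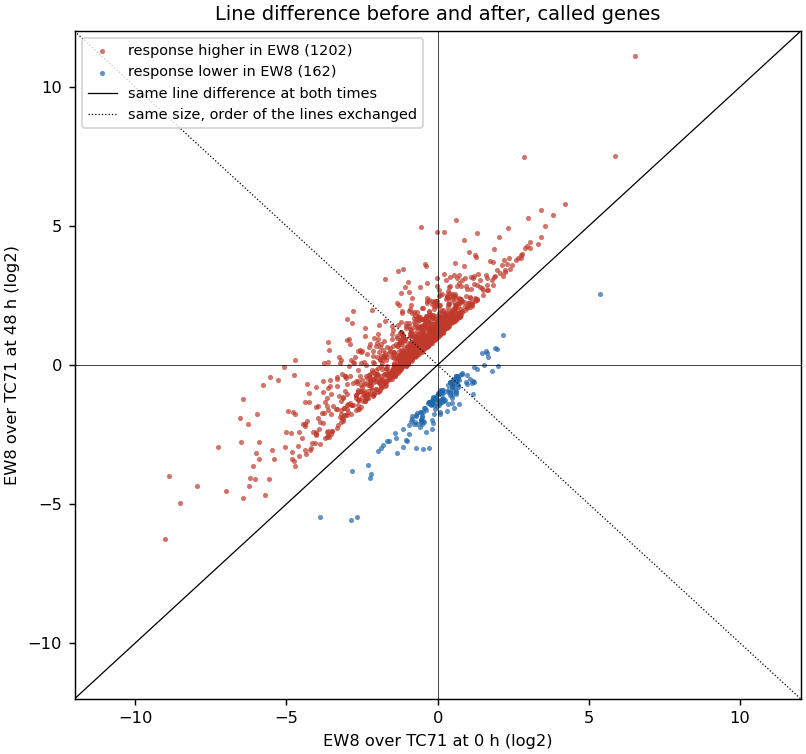
Each point is a called gene, with the EW8 level over the TC71 level at 0 h on the x axis and at 48 h on the y axis (both log2). The 1202 genes in red lie above the solid line of equal difference by construction; those at the lower left started lower in EW8 and came closer to TC71, and those near 0 on the x axis moved above TC71.

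Named genes showed both courses. From like levels at 0 h (within 1.2-fold), the genes with the smallest p included FAM53C, ACTN2, SNHG17 and TIMP3. FAM53C went from 59.9 ± 1.03 to 351 ± 15.3 CPM in EW8 and from 67.0 ± 1.33 to 126 ± 7.37 in TC71, and ACTN2, an actin crosslinker of the sarcomere, had responses of 2.23 and 0.70. SNHG17, a host gene of small nucleolar RNAs, had responses of 1.88 and 0.43. From levels at least 4-fold apart, the genes with the smallest p were LINC00659, MAPK8IP1, SYTL1, BTBD19 and TNC, and all of them started lower in EW8. LINC00659, a long noncoding RNA (chromosome 20, 62772980 to 62776996), had 3.28, 4.01 and 3.42 CPM in EW8 and 19.5, 18.05 and 19.9 in TC71 at 0 h, and 91.1, 87.8 and 98.7 against 79.4, 87.3 and 90.1 at 48 h. BTBD19 (chromosome 1, 44808523 to 44815585) had 1.05, 1.03 and 0.793 CPM against 8.34, 8.34 and 9.72 at 0 h, and 12.2, 12.1 and 13.5 against 13.1, 11.6 and 11.1 at 48 h. Both genes were apart at 0 h and overlapped at 48 h. MAPK8IP1, the JNK scaffold JIP1, went from 5.33 ± 0.338 to 36.3 ± 1.97 CPM in EW8 and from 37.2 ± 1.02 to 56.3 ± 3.67 in TC71. EPHA2, a receptor tyrosine kinase, also met TC71 at 48 h, with 80.4 ± 2.95 against 82.3 ± 4.83 CPM after 20.2 ± 0.684 against 52.4 ± 0.739 at 0 h.

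Among genes with a lower response in EW8, those from like levels were SAMD1, GJC1, ZBTB14, LSM2 and NRM. SAMD1, a protein that binds unmethylated CpG islands (chromosome 19, 14087851 to 14091036), had 103, 111 and 114 CPM in EW8 and 118, 127 and 113 in TC71 at 0 h, and 39.3, 37.1 and 36.8 against 107, 98.2 and 104 at 48 h. GJC1 (connexin 45) had responses of -0.99 and 0.24, ZBTB14 of -1.65 and -0.29 and NRM of -0.72 and 0.36. LSM2 stood at the threshold with -1.002, and its value lay above -1 without any 1 of 5 libraries or with total counts alone (-0.93). From levels at least 4-fold apart there were 3, FAM238B, MGAT5 and HHEX. FAM238B, a pseudogene, had -1.01 and fell below the threshold without any 1 of 3 libraries or with total counts alone (-0.93).

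Some calls rested on counts that 1 line hardly had. RET, a receptor tyrosine kinase, had 130, 105 and 174 counts in EW8 at 0 h and 237, 201 and 235 at 48 h, and 2, 1 and 1 and then 0, 0 and 0 in TC71. It rose in EW8 by 1.02, and no fold is given for TC71, where both groups were at the floor. TSBP1-AS1 and TNFRSF4 had at most 3 counts in every EW8 library and between 10 and 36 in every TC71 library. Neither the size nor the direction of their called differences is set by these counts, and TNFRSF4 lost its call without any 1 of 5 libraries. GDF15 was called at 3.64, but against a floor of 3 counts at 0 h the bound is at least 16.8-fold in EW8, below the 33.7-fold rise in mean CPM in TC71, so the order of its responses is not set by these counts. Its call was also lost without any 1 of 5 libraries.

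By annotation, 72.7% of the 1145 annotated genes with a higher response in EW8 were protein-coding, 17.9% were lncRNA genes and 9.08% pseudogenes, against 80.4%, 10.7% and 8.37% of the 15991 annotated genes tested. For the 148 annotated genes with a lower response the shares were 62.2%, 22.3% and 14.9%, and their median span of 9127 bases was below that of all genes (26444 bases) and of the higher set (22798 bases). The rate of calls with a higher response was 6.64% for genes up to 5 kb, 8.35% for 5 to 20 kb, 7.01% for 20 to 100 kb and 6.34% above 100 kb. The median GC content was 50.4% in the higher set, 47.3% in the lower set and 47.7% over all genes. The rate by chromosome lay between 4.24% and 8.53% outside the mitochondrial genome, where none of 16 genes was called.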

How the data were processed

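RNA-seq libraries (polyA-selected, TruSeq Stranded mRNA, paired-end) were made from the RRM1 knockout clones of EW8 and TC71 with doxycycline (0 h) and 48 hours after its removal. The authors deposited raw read counts per gene, and per the submitters' processing notes FastQC, STAR and hg38 were used. The counting tool, its strand setting and the annotation release are not given in the sources used here, so genes that overlap on either strand may share reads. Of 143 genes named by rule, 25 share exons with a gene on the same strand and 37 with one on the other strand only.

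Groups followed the labels. The deposited counts were fitted with edgeR 4.0.16 (R 4.3.3): TMM scaling, filterByExpr (minimum count 10, minimum total 15; 16515 of 20771 genes kept), robust quasi-likelihood fit of 4 groups over 12 libraries with 8 residual degrees of freedom, and the contrast between responses. A gene was called at a Benjamini-Hochberg adjusted p below 0.05 and a difference over 2-fold. CPM values are TMM-scaled, and errors are SD over 3 libraries. Library totals of 18468485 to 35698991 limit precision for genes of few counts, and a group at 3 counts or fewer in every library was treated as a floor. Annotation came from GENCODE 44 (hg38) and promoters from RefSeq (GRCh38.p14).

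Genes were named by rule: the 10 largest differences per direction and the 5 largest per class of opposite responses (mean of at least 20 counts in each group), up to 4 called members per list, genes at the floor in 1 line, RRM1, SLFN11, JUN and FOS, and up to 5 per direction from 0 h levels within 1.2-fold or at least 4-fold apart. Some genes are not reported here. The members and lists were chosen with earlier results of these data known. Alternatives were other scalings, filters, thresholds, DESeq2 1.42.0, replicate blocks and leaving out each library. Tested on simulated data with 16305 genes, the fit recovered 145 of 166 changed genes (87.3%) and called 2 unchanged ones. The changed genes differed in EW8 at 48 h alone, by more than the fold threshold, and no other gene responded in either line. Every simulated gene had the same biological coefficient of variation. The data differ in all of this, so these counts give no error rate for the calls made here.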

Additional observations from a re-analysis of the deposited data

Results flagged for a closer look

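Every gene called here was tested for a difference between the responses of the lines, by edgeR's quasi-likelihood test with Benjamini-Hochberg adjustment, so the 1202 genes with a higher and the 162 with a lower response in EW8 all differ between the lines by that test. So do the 43 genes up in EW8 and down in TC71 and the 21 down in EW8 and up in TC71. The 26 genes named for the largest differences were picked from these calls by size. Higher responses in EW8 were found for BTBD19 (a difference of 3.32 on the log2 scale), IFIT2 (3.08), DLX2 (2.78), DYRK1B (2.74), DNAH17 (2.64), MZF1-AS1 (2.57), LINC00659 (2.56), DDIT3 (2.46), DDX60 (2.42) and COL5A3 (2.39). Lower responses were found for ASPRV1 (-1.62), FDXACB1 (-1.59), TINCR (-1.55), KCNC4 (-1.52), HMX2 (-1.51), ENSG00000248835 (-1.42), ANKRD18EP (-1.39), PRDM13 (-1.39), PIGCP1 (-1.38) and PCNA (-1.38). Among opposite responses, the differences were 2.38 for CLBA1, 1.90 for CUBN, 1.77 for AC078846.1, 1.72 for CAND2, -1.30 for SHISA6 and -1.29 for MGAT5.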

How the results depend on the processing

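Of 212 summary values under the alternatives, 191 stayed within bounds set around the main value, a fold range for counts and a binomial interval for shares. These bounds are wide. They held 122 lower calls with total counts alone, against 162. They also held 30 genes up in EW8 and down in TC71 with a replicate block within each line, against 43. When no library could hold fewer than 10 counts of a gene, 634 genes had a higher and 98 a lower response in EW8, 27 were up in EW8 and down in TC71, 27.13% of the higher calls were lower in EW8 at 0 h, 38.96% lay closer at 48 h and 95.27% kept their sign in CPM. With a mean of at least 20 counts in each group these shares were 25.22%, 37.03% and 95.71%. DESeq2's Wald test gave 25 genes up in EW8 and down in TC71. The fold threshold inside the test left 226 and 6 calls, no fold threshold gave 4243 and 3697, and an adjusted p under 0.01 left 104 lower calls. At 0 h, a fold over 4 gave 20.47% lower in EW8 among higher calls and 1.235% higher among lower calls, and separate 0 h libraries gave 33.71%. With each library left out in turn, higher calls ranged from 1086 to 1249, lower calls from 139 to 192, opposite calls from 25 to 49 and from 19 to 31, the share of higher calls lower at 0 h from 36.00% to 38.85%, the share of lower calls higher at 0 h from 10.22% to 14.53%, the shares closer at 48 h from 44.08% to 47.82% and from 18.45% to 24.55%, and the shares whose difference had the same sign in CPM (92.7% of all higher and 96.3% of all lower calls) from 91.94% to 94.11% and from 95.35% to 97.60%. The shares with the same sign in CPM include genes that started from like or higher levels in EW8. For those genes the sign follows nearly by arithmetic, so these shares are largely fixed by the calls. Shares closer at 48 h depend in the same way on which line started lower. Total counts alone shifted the median difference of all genes to 0.116, and the share of higher calls was then 91.9% against 88.1%. Same-numbered libraries had correlations of deviations of -0.182, -0.215 and 0.016 in EW8 and -0.173, -0.337 and -0.264 in TC71, so the numbers do not pair the samples. With a replicate block within each line 1302 genes were called, 1280 of them shared, and with a replicate block shared by both lines 1329, of which 1316 were shared. Of 141 called genes named by rule, 120 kept their call in every other scaling, filter, block, tool and left-out library in which they were tested, but 20 were not tested when 10 counts were required in every library, and with the fold threshold inside the test 58 were called. The causes of these changes were not tested. Calls at few counts are less certain, and sequencing depth was not varied.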
